A study of Mus musculus with 6 samples.

Results

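Pyroptosis and necroptosis are forms of cell death in which the plasma membrane is opened from within. The 10 genes described here encode the core of both: the inflammasome sensors Nlrp3 and Nlrc4, the adapter Pycard, the caspases Casp1, Casp4 and Casp8, the pore-forming Gsdmd, the membrane-rupture protein Ninj1, and the necroptosis pair Ripk3 and Mlkl. They were chosen by name. Of the 56605 probes on the array, 13 carried one of these names, which makes 10 of the 37325 genes named on it. All 10 were among the 19500 genes tested, and each lay well above background on all 6 arrays.

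C57BL/6J mice aged 6 to 8 weeks gave the bone marrow, from which monocytes were purified by magnetic sorting (MACS). All cultures lasted 60 h and contained M-CSF at 20 ng/mL, under which monocytes turn into macrophages. The control samples (3) received nothing else, and the treated samples (3) received 100 U of the type I interferon IFN-beta. The labels name no genetic change in the mice, give no volume for the IFN-beta dose, and leave unsaid whether each replicate had its own mouse or culture, so p-values measure only the spread between these samples. Each sample's RNA was read on 1 array with the dye Cy3, and the question addressed is how type I interferon alters gene expression while monocytes mature.

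In an inflammasome, a sensor protein such as Nlrp3 or Nlrc4 gathers the adapter ASC (the product of Pycard) and activates caspase-1, which matures interleukin-1 beta and interleukin-18 and cleaves gasdermin D. The product of mouse Casp4, long called caspase-11, binds lipopolysaccharide in the cytosol and cleaves gasdermin D directly. Cleaved gasdermin D forms pores, and Ninj1 then tears the membrane. In necroptosis, Ripk3 phosphorylates Mlkl, which permeabilises the membrane, and caspase-8 holds this route in check. Macrophages can use all of these routes, and several of the genes are known interferon targets.

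Levels below are log2 of the processed signal minus the 75th percentile of the array, so a level of 0 is the signal at that percentile. They compare arrays for 1 probe and do not rank genes, since probes differ in brightness. The fold changes and adjusted p-values are those of limma, fitted over all 19500 genes. A gene is called changed at an adjusted p under 0.05.

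The promoter sequences of the 3 genes that were called are shown first, because interferon-responsive factors act through short motifs near the start of transcription. Each line gives the 250 bases before the start, 5′ to 3′ on the strand of the gene, as RefSeq has it on GRCm38.p6. The windows are chr8:111338206-111338455 on the minus strand for Mlkl, chr9:5308610-5308859 on the plus strand for Casp4 and chr9:5298267-5298516 on the plus strand for Casp1. Capitals mark matches to AANNGAAA, the core to which interferon regulatory factors bind, on either strand.
Mlkl: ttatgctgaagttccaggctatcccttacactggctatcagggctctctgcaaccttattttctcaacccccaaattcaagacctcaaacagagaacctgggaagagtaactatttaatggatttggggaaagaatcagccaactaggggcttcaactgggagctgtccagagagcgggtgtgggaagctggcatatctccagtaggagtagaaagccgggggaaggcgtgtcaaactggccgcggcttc
Casp4: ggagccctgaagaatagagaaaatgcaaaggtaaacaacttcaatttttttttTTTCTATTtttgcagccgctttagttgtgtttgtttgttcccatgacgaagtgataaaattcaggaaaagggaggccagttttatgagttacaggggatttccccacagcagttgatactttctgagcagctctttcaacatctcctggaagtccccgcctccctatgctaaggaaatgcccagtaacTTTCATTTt
Casp1: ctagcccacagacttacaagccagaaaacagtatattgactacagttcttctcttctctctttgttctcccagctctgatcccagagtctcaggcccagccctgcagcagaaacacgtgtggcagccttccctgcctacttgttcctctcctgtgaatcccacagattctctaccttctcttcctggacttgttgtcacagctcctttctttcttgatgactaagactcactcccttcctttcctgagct
The Casp4 window printed held 2 matches, whose first bases lie at -197 and -9 from the start, and the windows of Mlkl and Casp1 held none. RefSeq also gives another Casp4 start, with the window chr9:5308599-5308848. From that start the same matches lie at -186 and 3, the latter after the start. RefSeq windows, which also take in 50 bases after the start, were given for 9 of the 10 genes, all but Gsdmd. This motif, added after the data had been seen, stood in 4 of the 9 (Casp4, Casp8, Nlrp3 and Pycard) and in 26.7% of all 27025 genes with such a window. The longer core of the interferon-stimulated response element stood in 0 of the 9 and in 3.99% of all genes. The palindromic core TTCNNNGAA of the gamma-activated site stood in 0 of the 9 and in 9.55% of all genes. Every match to the longer core also holds a match to the shorter one. A match is no evidence of binding, and a window without one says only that these letters are not in it.

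Gsdmd was read by 2 probes, whose sequences show which stretches of the transcript the array measured. Both lie in the coding sequence on chromosome 15 (mm9, plus strand). The first, at chr15:75697536-75697595, gave the brighter signal and represents the gene, and the second, at chr15:75695520-75695884, spans 365 genomic bases with its 60 and so crosses an intron.
Gsdmd probe 1: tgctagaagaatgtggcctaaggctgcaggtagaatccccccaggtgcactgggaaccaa
Gsdmd probe 2: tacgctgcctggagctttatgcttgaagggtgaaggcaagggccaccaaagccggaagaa

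The arrays differed in ways that bear on every comparison below. Controls 1 and 2 were the brightest, with a 75th percentile of 549 and 528, against 305 for control 3 and 236 to 244 for the IFN-beta arrays. These 2 arrays were also nearly alike: their probes differed with a robust SD of 0.11, against 0.24 to 0.61 for other pairs of arrays. Spots of the same probe within an array imply 0.061 to 0.064 for these arrays, a value that leaves out noise between arrays. It therefore cannot tell whether controls 1 and 2 are separate samples. They were kept as separate samples, as labelled, and averaged as an alternative. IFN-beta 1 shared its slide (slide 1) with all 3 controls, while the other IFN-beta arrays were on slide 2. In a fit with slide as a block, used below, the log2 fold change therefore rests on IFN-beta 1 against the 3 controls. It is the same value as within slide 1, and IFN-beta 2 and 3 add only to the estimate of spread. A call with slide as a block is thus not separate support from the other IFN-beta arrays.

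Markers of the cells named in the labels were present. All 11 monocyte and macrophage markers lay above background on every array, and their summed level was 9.35 to 9.93 on control and 9.77 to 9.78 on IFN-beta arrays. Single markers moved within that sum, with 1 called higher and 2 lower of 11. Fcgr1, an Fc receptor for IgG, rose by 2.20 ± 0.27 (SE) (adjusted p = 0.00173), Cd14, the co-receptor for lipopolysaccharide, was at -1.81 ± 0.25 (SE) (adjusted p = 0.00267), and Itgam, an integrin chain, at -0.72 ± 0.16 (SE) (adjusted p = 0.0177). Against control 3 alone Fcgr1 and Cd14 remained called and Itgam did not (adjusted p = 0.131). With slide as a block Cd14 (adjusted p = 0.0511) and Itgam (adjusted p = 0.155) were not called. These 3 markers are named after their values were seen. The M-CSF receptor gene Csf1r differed by 0.07 ± 0.20 (SE), adjusted p = 0.836. The treatment was visible as well. All 10 known interferon-induced genes of a check list rose, with a median of 3.90, among them Irf7, a transcription factor of the interferon response, by 4.32 ± 0.30 (SE) (adjusted p = 0.000144).

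Markers of other cells moved with the arrays. All 17 fibroblast markers were above background on controls 1 and 2, 7 on control 3 and 8 on each IFN-beta array. Their summed level was 9.55 and 9.73 on controls 1 and 2, and between 3.96 and 5.73 on control 3 and the IFN-beta arrays. On these latter arrays the sum was nearly all Acta2, at 4.95 on control 3 and 3.71 to 5.66 with IFN-beta. The median level of the 8 fibroblast markers tested differed more. It was 4.67 and 4.76 on controls 1 and 2, -2.62 on control 3, and -1.74 to -0.92 with IFN-beta. The erythroid sum was 7.07 and 6.97 on controls 1 and 2, -0.49 on control 3, and 0.69 to 1.23 with IFN-beta. Controls 1 and 2 therefore carried signal that control 3 and the IFN-beta arrays did not.

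The neutrophil sum was 9.07 to 9.51 on control and 9.96 to 10.26 on IFN-beta arrays, with all 14 markers above background on all 6 arrays and 10 of them higher with IFN-beta. The basophil and mast cell sum was 2.90 to 3.59 against 6.08 to 6.64, with 7 or 8 of 8 markers above background on each array and all 7 tested markers higher. B cell sums ran from 1.03 to 1.85 on control and 1.33 to 1.49 on IFN-beta arrays, with Cd79a above background on none. T and NK cell sums ran from 0.20 to 0.62 and from 0.10 to 0.85, with Ncr1 above background on none. Of the markers with the highest level in each list, Mcpt8 of basophils rose by 3.66 ± 0.26 (SE) (adjusted p = 0.000147). S100a9 of neutrophils was at 0.41 ± 0.17 (SE) (adjusted p = 0.129), Lyz2 of macrophages at 0.28 ± 0.19 (SE) (adjusted p = 0.329) and Acta2 of fibroblasts at -0.80 ± 0.47 (SE) (adjusted p = 0.26). Hba-a1 of erythroid cells was at -3.53 ± 1.91 (SE) (adjusted p = 0.223), Cd79b of B cells at 0.01 ± 0.25 (SE) and Cd3e of T cells at 0.12 ± 0.20 (SE). In these last lists 1 marker each was called, and both are named after their values were seen. Of 4 tested B cell markers Ms4a1 (CD20) was called higher, above background on 2 control and 3 IFN-beta arrays, and not with slide as a block (adjusted p = 0.118). Of 3 tested T and NK cell markers Klrb1c (NK1.1) was called lower, above background on all 3 controls and 0 IFN-beta arrays. Each passed the filter only through the group where it was higher, which favours a call in that direction. Neither call is therefore used as support for a change in these cells. The part of these cells in the results below was not tested, and in bulk RNA a change in the number of cells of a type and a change in RNA per cell cannot be told apart. For each of the 10 genes the difference is therefore also given against control 3 alone and against controls 1 and 2 alone, and for the called genes of the pathway lists the text says whether the call held against control 3 alone.

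**Figure D1:**
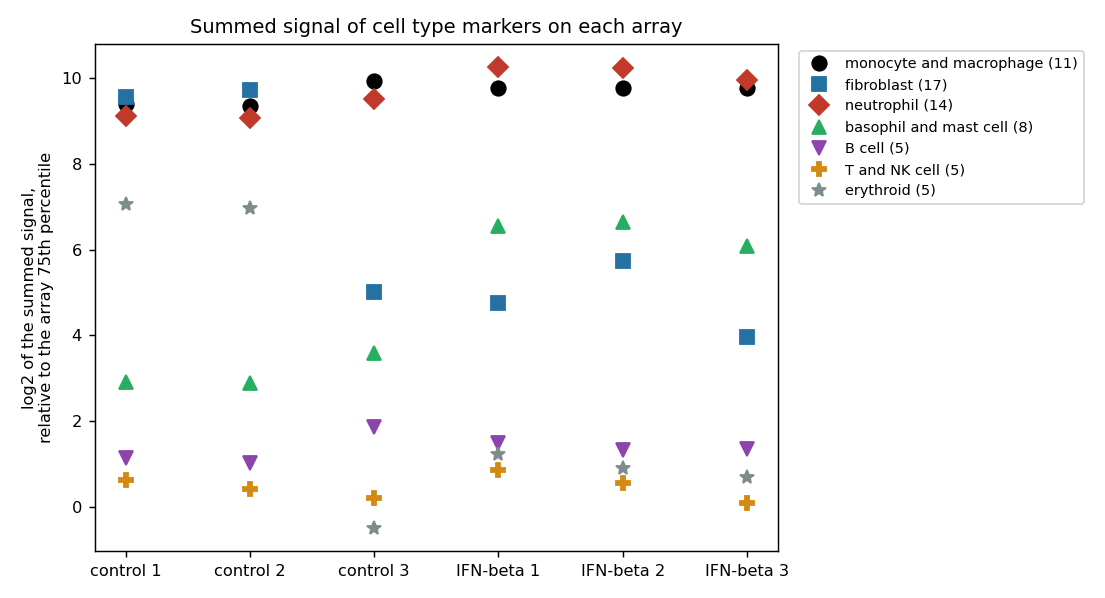
Summed signal of each marker list (log2, relative to the 75th percentile of the array) on the 3 control and 3 IFN-beta arrays, 1 point per array, with the number of markers in brackets. Fibroblast and erythroid signal stands high on controls 1 and 2 only, monocyte and macrophage signal stays between 9.35 and 9.93 on all arrays, and neutrophil and basophil signal is higher on the IFN-beta arrays.

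With IFN-beta, 3 of the 10 genes rose in the comparison of all 6 arrays, Mlkl by 3.38-fold, Casp4 by 2.44-fold and Casp1 by 1.80-fold, and none was called lower (limma; 6 had an unadjusted p under 0.05, all higher). Among all genes tested, 11.8% were called higher and 8.03% lower, 19.8% in all. Beside these shares, 3 calls among 10 genes is a small count, and nothing particular to the 10 is read from it. The median log2 fold change was 0.62 over the 10 genes and 0.10 over all 19500. Levels of 6 of the 10 lay higher on every IFN-beta array than on every control array, as did those of 23.4% of all genes, and 40.2% of all genes had groups that did not overlap in either direction.

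Of the called genes as a whole, 59.5% were higher with IFN-beta, and this split depended on the scaling and on the background correction. Scaling on the spike-in controls left 40.6% higher and moved the median of all genes from 0.10 to -0.003. Scaling on the median of the monocyte and macrophage markers, an alternative chosen after the data had been seen, left 22.2% higher and moved that median to -0.29. Normexp background correction left 69.9% higher and a median of 0.18 with the percentile scaling, and 59.3% and 0.056 with quantile normalization. Under each of these settings 8 of the 10 genes kept a positive log2 fold change, and Mlkl and Casp4 remained called. Nlrc4 and Ninj1 had a negative one.

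**Figure D2:**
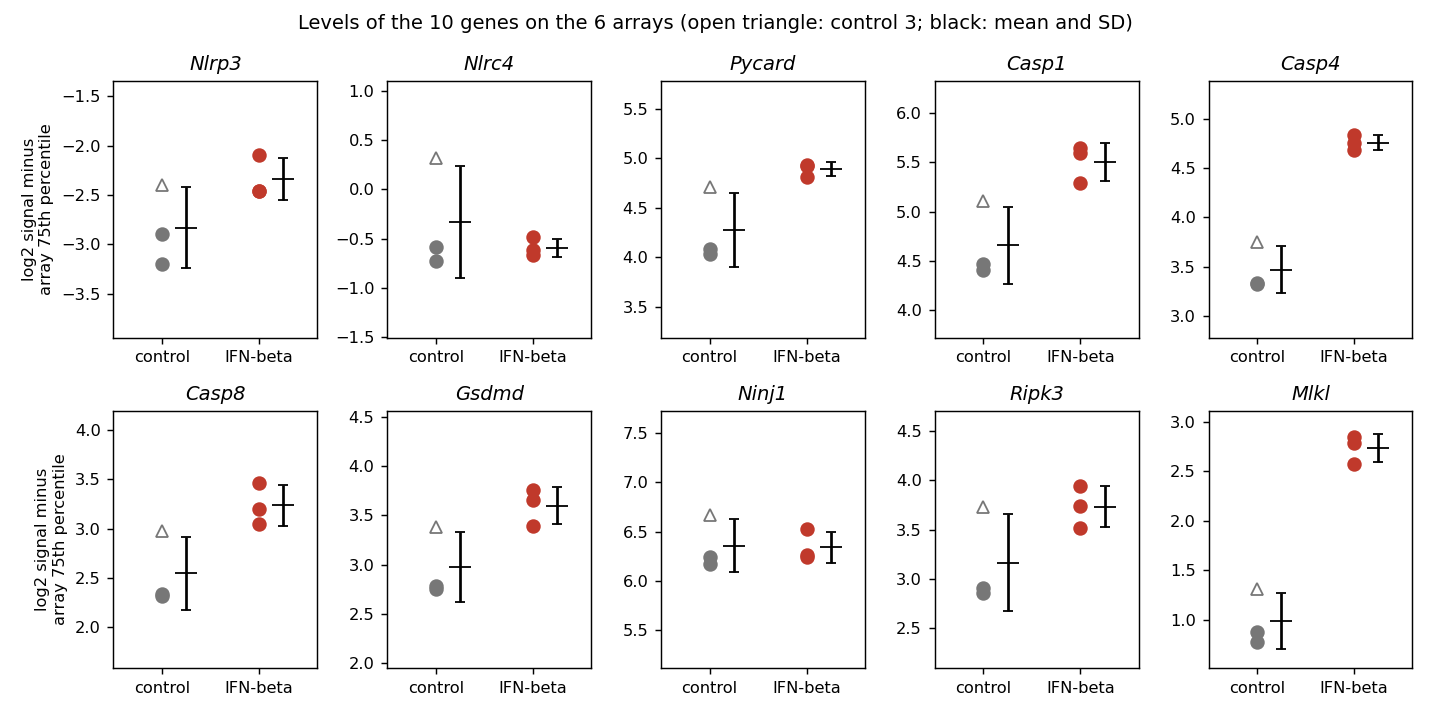
Level of each of the 10 genes (log2 processed signal minus the 75th percentile of the array) on the 3 control and 3 IFN-beta arrays, 1 point per array, an open triangle for control 3, and a black bar for the mean and SD of the group; the panels have axes of equal span. Mlkl, Casp4 and Casp1 stand higher on all IFN-beta arrays, and control 3 lies above controls 1 and 2 for all 10 genes.

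Neither the sensors nor the adapter were called over all 6 arrays. Nlrp3, which responds to potassium loss and membrane damage, had levels of -2.89, -3.20 and -2.40 on controls 1, 2 and 3 and of -2.09, -2.46 and -2.45 on IFN-beta arrays 1, 2 and 3. The groups overlapped, with control 3 at the level of IFN-beta 2 and 3. Its log2 fold change was 0.49 ± 0.24 (SE), adjusted p = 0.18, with a 95% interval of -0.06 to 1.05. Against controls 1 and 2 alone it was 0.71 (adjusted p = 0.019), and against control 3 alone 0.06 (adjusted p = 0.9).

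Nlrc4, the sensor that joins with Naip proteins bound to bacterial flagellin or secretion needles, behaved differently on control 3. Its levels were -0.59, -0.72 and 0.32 on the controls and -0.67, -0.49 and -0.62 on the IFN-beta arrays. Control 3 alone stood out, and the other 5 arrays lay close to each other. Over all arrays the difference was -0.26 ± 0.28 (SE), adjusted p = 0.54, interval -0.91 to 0.39. It was 0.06 against controls 1 and 2 (adjusted p = 0.678), and Nlrc4 was called lower against control 3 alone (-0.91, adjusted p = 0.0473). Its direction thus turned with the choice of control.

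Pycard, the adapter that links sensors to caspase-1, read 4.08, 4.03 and 4.71 on the controls and 4.93, 4.81 and 4.93 with IFN-beta. All 3 IFN-beta arrays lay above all controls, control 3 by the smallest margin. The log2 fold change of 0.61 ± 0.22 (SE), interval 0.11 to 1.12, was not called (adjusted p = 0.0826). Without control 3 it was 0.83 and called (adjusted p = 0.00235), and against control 3 alone it was 0.18 (adjusted p = 0.616). A dim second probe named Pycard, 3784 bases away and on the opposite strand, differed by 0.89 ± 0.18 (SE). It was above background on 2 of the 3 controls, and whether it reads Pycard could not be checked. This probe passed the filter only through the IFN-beta arrays, where it was higher, so its difference is not used as support for a change in Pycard.

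Of the caspases, Casp1 and Casp4 were called, Casp4 with the lower p. The levels of Casp4 were 3.33, 3.33 and 3.75 on the controls and 4.75, 4.68 and 4.83 on the IFN-beta arrays. The groups were well apart, with the lowest IFN-beta array above control 3. The difference was 2.44-fold (95% interval 1.83 to 3.25), a log2 fold change of 1.28 ± 0.18 (SE), adjusted p = 0.00291. Casp4 remained called without each array in turn (adjusted p from 0.000335 to 0.0176), against control 3 alone (1.01, adjusted p = 0.033) and with slide as a block (adjusted p = 0.0496). Within slide 1, which leaves IFN-beta 1 against the 3 controls, the value was 1.28, by design the same as with slide as a block. Casp4 was not called there. The probe lies at chr9:5336658-5336717 (mm9).

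Casp1, the inflammasome caspase itself, read 4.47, 4.41 and 5.11 on the controls and 5.60, 5.29 and 5.64 with IFN-beta. Here too the groups did not overlap, although IFN-beta 2 and control 3 were close. Casp1 rose by 0.85 ± 0.23 (SE), or 1.80-fold (95% interval 1.24 to 2.62), adjusted p = 0.0397. The call depended on single arrays: it was lost without control 1, control 2 or any single IFN-beta array (adjusted p from 0.0758 to 0.148). Against control 3 alone the difference was 0.40 (adjusted p = 0.347), with spike-in scaling 0.75 (adjusted p = 0.175), and with slide as a block the adjusted p was 0.195. Against controls 1 and 2 alone it was 1.07 (adjusted p = 0.00265).

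Casp8, which cleaves Ripk3 and so restrains necroptosis, read 2.34, 2.32 and 2.98 on the controls and 3.05, 3.20 and 3.46 with IFN-beta. The groups did not overlap, but IFN-beta 1 and control 3 nearly met. The log2 fold change of 0.69 ± 0.23 (SE), interval 0.15 to 1.22, was not called (adjusted p = 0.0725). It was 0.90 and called without control 3 (adjusted p = 0.00535), and 0.26 against control 3 alone (adjusted p = 0.55).

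Neither membrane executor of pyroptosis was called by the probe that represents it. Gsdmd, by the first probe printed above, read 2.79, 2.75 and 3.38 on the controls and 3.39, 3.65 and 3.76 with IFN-beta. IFN-beta 1 and control 3 were level and the rest were apart. The difference on the log2 scale was 0.63 ± 0.22 (SE), interval 0.11 to 1.14, adjusted p = 0.0851, and 0.83 without control 3 (adjusted p = 0.00622), against 0.22 for control 3 alone (adjusted p = 0.606). The intron-crossing probe read -0.12, -0.30 and 0.15 on the controls and 0.54, 0.85 and 0.81 with IFN-beta, which is 0.83 ± 0.19 (SE) with an adjusted p of 0.0196 over all probes, of which 21.5% were called. Both Gsdmd probes were higher on every IFN-beta array than on every control, and only the dimmer probe was called.

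Ninj1, which ruptures the membrane after the pores have formed, read 6.24, 6.17 and 6.67 on the controls and 6.24, 6.26 and 6.52 with IFN-beta. The groups overlapped throughout. The log2 fold change was -0.02 ± 0.19 (SE), interval -0.47 to 0.44, adjusted p = 0.963, which leaves room for a change of that size in either direction. It was 0.14 against controls 1 and 2 (adjusted p = 0.43) and -0.32 against control 3 (adjusted p = 0.422). The second Ninj1 probe gave 0.22 ± 0.22 (SE) (adjusted p = 0.509 over all probes). With monocyte marker scaling Ninj1 was called lower (-0.41, adjusted p = 0.0319).

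Of the necroptosis pair, Mlkl was called and Ripk3 was not. Mlkl, the executor, had the largest log2 fold change of the 10 genes, with levels of 0.87, 0.77 and 1.31 on the controls and 2.79, 2.58 and 2.85 with IFN-beta. The lowest IFN-beta array lay well above control 3. The difference was 3.38-fold (95% interval 2.45 to 4.64), a log2 fold change of 1.75 ± 0.20 (SE), adjusted p = 0.00108. Mlkl remained called without each array in turn (adjusted p from 0.000214 to 0.00756), against control 3 alone (1.43, adjusted p = 0.0141) and with slide as a block (adjusted p = 0.0245). Within slide 1 the value was 1.80, by design the same as with slide as a block, and Mlkl was not called there. The probe lies at chr8:113835897-113835956 (mm9).

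Ripk3, the kinase that acts on Mlkl, read 2.90, 2.86 and 3.73 on the controls and 3.74, 3.52 and 3.94 with IFN-beta. Control 3 lay among the IFN-beta arrays. The log2 fold change was 0.57 ± 0.27 (SE), interval -0.05 to 1.19, adjusted p = 0.166. It was 0.85 without control 3 (adjusted p = 0.00685) and 0.004 against control 3 alone (adjusted p = 0.992).

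The change in the difference between both genes on the same array does not depend on a scaling that shifts all levels of an array equally. Quantile normalization and normexp correction are not of that kind and can alter it. The level of Mlkl minus that of Ripk3 was -2.03, -2.09 and -2.42 on the controls and -0.95, -0.94 and -1.09 with IFN-beta. The groups did not overlap, and the change was 1.19 over all controls and 1.43 against control 3. This pair was chosen after its values had been seen, so no test is given. The same holds for Gsdmd minus Ninj1, which was -3.45, -3.42 and -3.28 on the controls and -2.85, -2.61 and -2.77 with IFN-beta, a change of 0.64 overall and 0.54 against control 3.

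For these genes control 3 stood apart from controls 1 and 2. Its level lay above those of controls 1 and 2 for all 10 genes, as it did for 73.8% of all genes. The rise from the mean of controls 1 and 2 to control 3 was smallest for Casp4 (0.41) and largest for Nlrc4 (0.97). Without control 3, 8 of the 10 genes were called higher, all but Nlrc4 and Ninj1, where 33.1% of all genes were called higher and 15.1% lower. With control 3 as the only control, a fit in which the spread comes from the IFN-beta arrays alone, Mlkl and Casp4 were called higher and Nlrc4 lower, where 5.22% of all genes were called higher and 4.34% lower. Levels of 6 of the 10 lay above control 3 on every IFN-beta array, as did those of 28.6% of all genes. The median of the 10 was 0.84 against controls 1 and 2 and 0.20 against control 3, beside 0.22 and -0.10 for all genes.

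**Figure D3:**
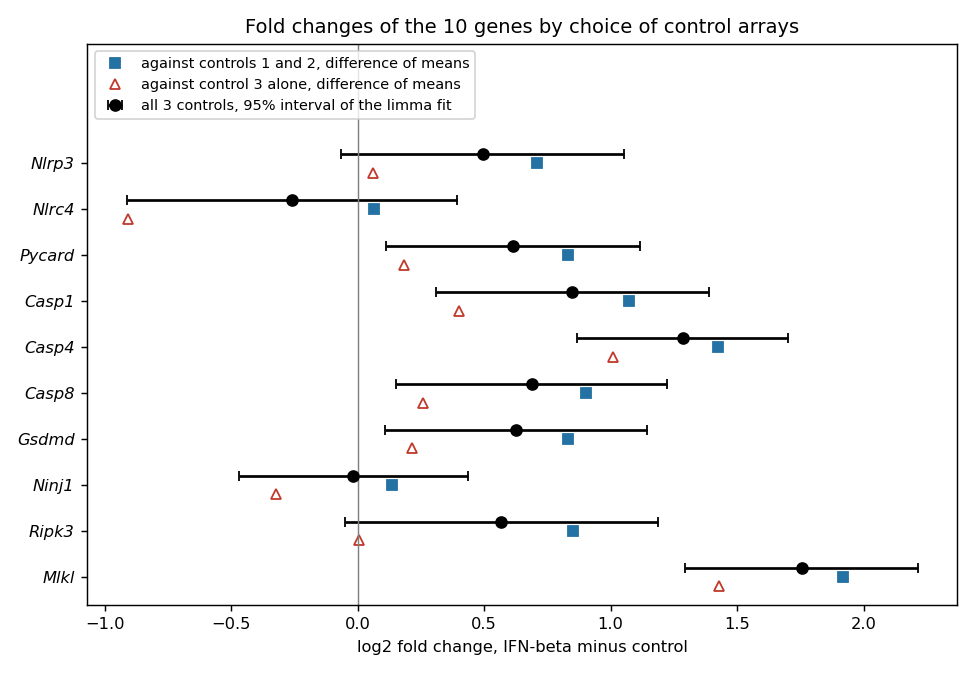
Log2 fold change (IFN-beta minus control) of the 10 genes against all 3 controls (black point, with the 95% interval of the limma fit), against controls 1 and 2 (blue square) and against control 3 alone (red triangle), the latter both as differences of means without error bars. For every gene the value against control 3 is the lowest of the 3; Mlkl (1.43) and Casp4 (1.01) stay farthest above 0, and Ripk3 falls to 0.004.

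Other genes of the pathways were measured in 6 lists that hold none of the 10 genes. Of the 52 tested, 11 rose and 2 fell, against 11.8% higher and 8.03% lower among all genes, and their median was 0.29. Without control 3 the counts were 29 and 4, and against control 3 alone 9 and 0. The calls were uneven across the lists.

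Some guanylate-binding proteins and immunity-related GTPases expose bacterial lipopolysaccharide to caspase-11, and this role is not implied for each gene of the list. All 6 that were tested rose (Gbp2, Gbp3, Gbp5, Gbp7, Irgm1 and Irgm2), with a median of 2.30, and all 6 were called against control 3 alone as well. Gbp7 read -1.47, -1.61 and -0.93 on the controls and 1.61, 1.57 and 1.70 with IFN-beta, a log2 fold change of 2.96 ± 0.21 (SE), adjusted p = 0.000153. Irgm1 rose by 2.51 ± 0.22 (SE) (adjusted p = 0.000376), Gbp5 by 2.26 ± 0.16 (SE) (adjusted p = 0.000163) and Gbp2 by 1.85 ± 0.16 (SE) (adjusted p = 0.000388). Members of these families are similar in sequence, so a probe may read more than 1 of them. All 6 remained called under each scaling tried and with slide as a block.

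Among 16 partners of death receptors and necroptosis, 3 rose and 1 fell, with a median of 0.29. Zbp1, the nucleic acid sensor that engages Ripk3, read 0.73, 0.68 and 1.63 on the controls and 5.38, 5.05 and 5.52 with IFN-beta. Its groups lay far apart, and the log2 fold change was 4.30 ± 0.28 (SE), adjusted p = 0.000121. Tlr3, the receptor for double-stranded RNA, rose by 1.79 ± 0.20 (SE) (adjusted p = 0.00101). Both were also called against control 3 alone (adjusted p = 0.00132 for Zbp1 and 0.0184 for Tlr3) and with slide as a block (adjusted p = 0.00568 and 0.0222). Traf2, a receptor adapter, was called higher by 0.61 ± 0.15 (SE) (adjusted p = 0.0302), a call lost without any array but control 3 and with 2 of the scalings (spike-in and monocyte marker). It was also lost against control 3 alone (0.48, adjusted p = 0.197) and with slide as a block (adjusted p = 0.222).

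Fas, the death receptor, was the called gene in the other direction at -1.54 ± 0.41 (SE), adjusted p = 0.0353. It read 2.11, 2.30 and 0.66 on the controls and 0.27, 0.14 and 0.03 with IFN-beta, so that control 3 lay much nearer the IFN-beta arrays, and against it alone the difference was -0.51 (adjusted p = 0.202). The fibroblast and erythroid sums were also high on controls 1 and 2 only, and their part in the level of Fas was not tested. The call of Fas was lost without any array but control 3 (adjusted p from 0.0786 to 0.11), with slide as a block (adjusted p = 0.253), with quantile normalization (adjusted p = 0.0575) and in the deposited table (adjusted p = 0.0558). Ripk1, the kinase that recruits Ripk3, is named after its values were seen: it was at 0.49 ± 0.21 (SE), adjusted p = 0.137, and not called.

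Of 13 other inflammasome genes, 2 rose and 1 fell, with a median of 0.19. Nlrp1a, a sensor whose family has near-identical copies that the probe may share, rose by 2.23 ± 0.16 (SE) (adjusted p = 0.000147) and was also called against control 3 alone (adjusted p = 0.00325) and with slide as a block (adjusted p = 0.00611). Mefv, which encodes the inflammasome sensor pyrin, read 2.23, 2.16 and 2.70 on the controls and 3.16, 3.30 and 3.39 with IFN-beta, 0.92 ± 0.20 (SE), adjusted p = 0.017. Txnip, an Nlrp3-binding protein, fell by 0.69 on the log2 scale (SE 0.16, adjusted p = 0.0223). The calls of Mefv and Txnip were lost with spike-in scaling and on leaving out most single arrays: for Txnip every array but control 3, for Mefv every array but control 3 and IFN-beta 1. Against control 3 alone Mefv was at 0.58 (adjusted p = 0.156) and Txnip at -0.82 (adjusted p = 0.0623), and with slide as a block the adjusted p was 0.185 for Mefv and 0.117 for Txnip. P2rx7, the ATP-gated channel upstream of Nlrp3, was at -0.73 ± 0.22 (SE), adjusted p = 0.0518, and not called. The list kept 1 to 4 calls higher and 0 to 4 lower over the scalings, and with monocyte marker scaling its median was -0.20. Nlrp6, Nlrp12 and Casp12 were too dim to test.

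No gene was called by limma in the remaining lists. Of 4 genes for inflammasome cargo and other gasdermins, with a median of -0.02, none had an unadjusted p under 0.05. Il18 was at 0.45 ± 0.23 (SE), adjusted p = 0.202. Il1b, whose product is the classic substrate of caspase-1, was at -0.32 ± 0.29 (SE), adjusted p = 0.462, Gsdme at 0.29 ± 0.25 (SE), adjusted p = 0.437, and Hmgb1 at -0.33 ± 0.18 (SE), adjusted p = 0.23. Il1a, Gsdma and Gsdmc were too dim to test.

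Of 5 apoptotic caspases, with a median of 0.11, 1 had an unadjusted p under 0.05. Casp2 was at 0.26 ± 0.22 (SE), adjusted p = 0.43. Casp6 was at 0.11 ± 0.23 (SE), adjusted p = 0.754. Of 8 genes that repair the membrane against pores, with a median of 0.09, 1 had an unadjusted p under 0.05 in each direction. Chmp4b, the main filament protein of the ESCRT machinery, was at 0.58 ± 0.19 (SE), adjusted p = 0.0641, and Vps4a, an ATPase of that machinery, at -0.57 ± 0.24 (SE), adjusted p = 0.132. Anxa1, a calcium-dependent membrane-binding protein, was at 0.37 ± 0.21 (SE), adjusted p = 0.238, and Pdcd6ip (ALIX) at -0.36 ± 0.24 (SE), adjusted p = 0.305. The signs of the medians of these 3 lists turned with the scaling, and over the scalings tried 0 or 1 gene was called for cargo and for apoptotic caspases and 0 to 3 genes for membrane repair.

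**Figure D4:**
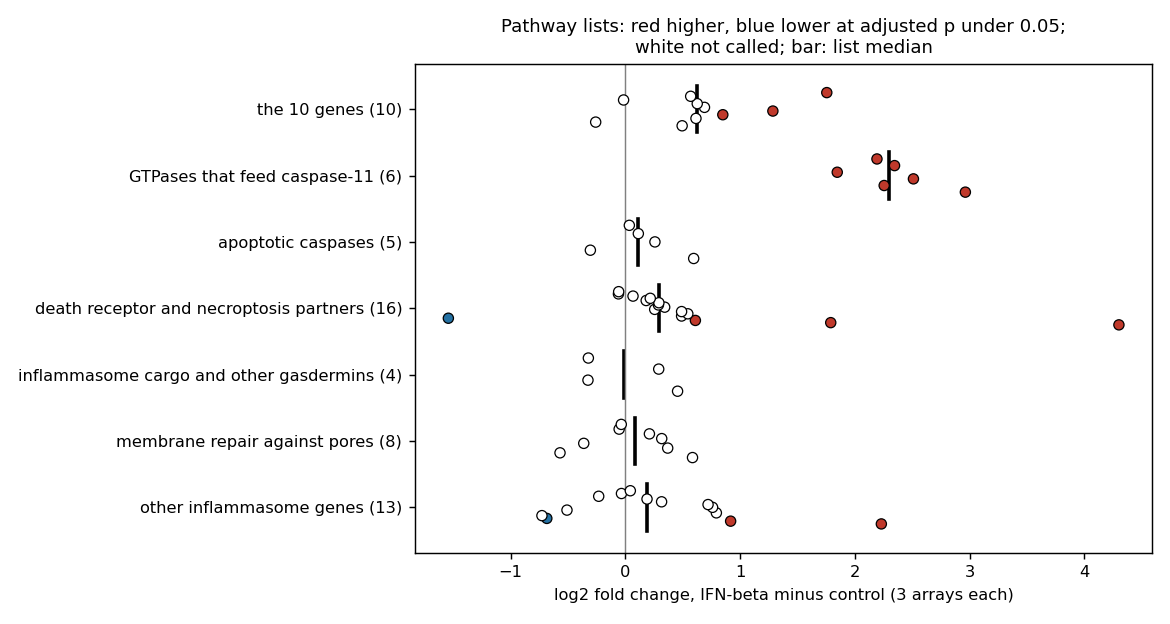
Log2 fold change (IFN-beta minus control, 3 arrays each) of the 10 genes and of the genes of 6 pathway lists, 1 point per gene, red where called higher, blue where called lower and white where not called, with a black bar at the median of each list and the number of genes in brackets. All 6 GTPases lie between 1.85 and 2.96, Zbp1 is the point at 4.30, and the lists of cargo, apoptotic caspases and membrane repair hold no called gene.

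Some of the 10 genes had nearly the same profile across the 6 arrays. Mlkl and Casp4 correlated with Pearson r = 0.998 over 6 arrays, and Casp8 and Gsdmd with r = 0.994, whereas Nlrc4 and Mlkl had r = -0.20. Among all named genes tested, those whose profile was most like that of Mlkl were Cox18, H2-Eb2 and Klk1b22 (r = 0.999 each), and those most like Casp4 were Herc6 (r = 0.9997), Dtx3l (r = 0.9995) and LOC547349 (r = 0.9993). These values describe 6 arrays that share a scaling, and no test is attached to them. They take in the gap between both groups and also differences within a group. One such difference is the rise of control 3 above controls 1 and 2 (0.65 for Casp8 and 0.61 for Gsdmd). How much each adds was not tested.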

How the data were processed

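Each of 6 mouse monocyte samples was hybridised to a 1-colour Agilent array. The authors used Agilent Feature Extraction 12.0.3.1, per the file headers, and the deposited intensity per spot is background-subtracted and detrended within each array, with no normalization between arrays. The deposited value table holds log2 values whose normalization is not given in the sources used here (the submitters' processing notes name limma). Its columns correlated with the scanner values of their own array (r from 0.996 to 0.999, column medians 4.81 to 4.83), so scale is log2 and genes are not centred, and it served as an alternative.

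Outlier spots (135 to 174 of 59305 per array) were left out and spots of a probe averaged. Levels are log2 processed signal minus the 75th percentile of the array. Tested were the 29794 probes that all arrays of 1 group, or of both, showed well above background, and the probe with the highest mean represented its gene, which left 19500 genes. Symbols came from the files and, for 32994 probes, from RefSeq (GRCm38.p6) through their accession. For 13387 probes the name in the file matched no RefSeq symbol and was kept. Where tested, such names count as genes in the shares of all genes. No array had a saturated probe, and 49.0% to 63.9% of probes were well above background. Groups were those of the labels. The test was limma 3.58.1 in R 4.3.3 (lmFit and eBayes, 2-sided, no covariate) with Benjamini-Hochberg adjustment over all genes tested, and the number of arrays limits its precision. The procedure was tested on simulated data.

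The genes, the pathway and marker lists and the tests were chosen with earlier results of these data known. Named are the 10 genes with all probes, in each pathway list up to 4 genes of lowest p and the called gene of lowest p in the rarer direction, Irf7, Csf1r, the marker with the highest level in each cell type list, and the 3 genes most like Mlkl and Casp4. Alternatives were the normalization (quantile, normexp with offset 50, spike-in, monocyte marker scaling, the deposited table), the filter, the choice of probe, eBayes with trend, array weights, the replicate number or slide as a block, and leaving out or averaging controls. Irgb10 was not matched by name, and Dfna5 and Emr1 are older names of listed genes. Other genes named are said to be so after their values were seen. Some genes that this rule would name are not reported here.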

Additional observations from a re-analysis of the deposited data

How the results depend on the processing

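Over the 22 alternatives, Mlkl stayed between 1.37 and 1.92 and Casp4 between 0.89 and 1.42, each called in 21 of them and not within slide 1. Casp1 stayed between 0.40 and 1.07 and was called in 11. The other genes were called in at most 6. The number of the 10 genes called, 3 in the comparison as reported, was 6 with normexp background correction (either scaling), 5 when probes of a gene were averaged, 6 with eBayes trend and robust, 8 with array weights and 0 within slide 1, where 2 had an unadjusted p under 0.05. With probes averaged, Pycard was among those called (0.75, adjusted p = 0.0284). Its average takes in the dim probe on the opposite strand, which passed the filter only through the IFN-beta arrays. Leaving out 1 array at a time gave 2 to 8, the 8 without control 3. Of all 19500 genes tested, 3866 were called. With normexp the count was 5487 (percentile scaling) and 4966 (quantile normalization). It was 3942 when probes of a gene were averaged and 4364 with eBayes trend and robust. The counts of the 10 genes stand beside these, and nothing particular to the 10 is read from them. The count was 1697 without a filter on dim probes, 12734 with array weights, whose estimate stopped before convergence, 1040 with slide as a block and 369 within slide 1. It was 1864 with control 3 as the only control, 1993 with controls 1 and 2 averaged, 6933 with monocyte marker scaling, and 1830 to 9390 leaving out 1 array at a time. The cause of these shifts was not tested. By design, fewer arrays enter where arrays are left out or averaged, and more genes where the filter is dropped. Ninj1 (-0.02) turned to 0.10 with the mean of its probes, 0.10 with array weights, and, leaving out 1 array at a time, ran from -0.11 (without control 2) to 0.14 (without control 3), with 0.03 and 0.02 without IFN-beta 1 and IFN-beta 2. For the Nlrc4 log2 fold change (-0.26) the values were 0.023 with array weights and, leaving out 1 array at a time, -0.46 (without control 2) to 0.065 (without control 3).

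Same-numbered samples of both groups did not deviate together (correlations 0.0719, 0.0222 and 0.073), so the numbers were not taken as pairs, although each control correlated best with the IFN-beta array of its own number, a hint from the data and not from the design. With the replicate number as a block 3271 genes and the same 3 of the 10 genes were called, and of the calls in the pathway lists that of Traf2 was lost (adjusted p = 0.0559).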
